A study of Sus scrofa with 7 samples.

Results

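Genes that mark B cells and the plasma cells that arise from them were followed in heart muscle of infarcted pigs. The set was chosen by name and holds 9 of the 20653 genes in the deposited table. CD79A, CD79B, MS4A1, TNFRSF13C, PAX5 and BLK were grouped here as genes of B cells. JCHAIN, MZB1 and POU2AF1 were grouped as genes of antibody-secreting cells, which does not mean that B cells lack them. Where a gene had several transcript rows, the row of highest mean value across all 7 libraries stood for it. RNA came from the anteromidventricular myocardium of male farm pigs 14 weeks after myocardial infarction by way of the left circumflex artery (LCX). Every pig was given AAV5, a gene-delivery virus. Its cargo was luciferase, a reporter enzyme, in the 3 hrLuc pigs and human S100A1, which binds calcium in heart muscle cells, in the 4 S100a1 pigs. The titles name each library as a separate pig. The sources used here do not give the age of the animals or the promoter in the vector. Both groups share the infarct and the virus, and no uninfarcted heart was analysed here.

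B cells recognise antigen through a membrane antibody that signals through the paired chains CD79A and CD79B. After activation some of them become plasma cells, which switch off much of the B cell programme and turn to secreting antibody. The joining chain encoded by JCHAIN links IgA and IgM into polymers. In the mouse heart, B cells are a small population found largely within vessels, and they have been tied to the response to infarction.

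Depth, counting each gene by a single row, was 28679324 to 38409552 reads a library. Values are normalized read counts, that is reads divided by the authors' size factor for the library, and 1 read was worth 0.824 to 1.14 units. Cardiomyocyte markers summed to between 1593600 and 1939400 normalized counts in every library, as the tissue label states. The pig S100A1 gene, which overlaps S100A13, stood at 7718 ± 1298 (SD, n = 3) in hrLuc against 5933 ± 1064 (SD, n = 4) in the S100a1 group. Whether reads of the human sequence could be counted on it is not known, so it does not check the labels.

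The B cell label rested on few reads. CD79A had 4 to 14 reads in a library and CD79B had 1 to 9. Genes were tested where 3 or more libraries reached 10 normalized counts, which left 15661, and 6 of the 9 members passed it. CD79A, CD79B and MS4A1 did not, so for these the values are given with an exact permutation test and no test across genes. CD22, an inhibitory receptor of B cells, was measured at 38.9 to 91.4 normalized counts. In bulk tissue fewer cells of a type and less RNA per cell cannot be told apart.

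**Figure D1:**
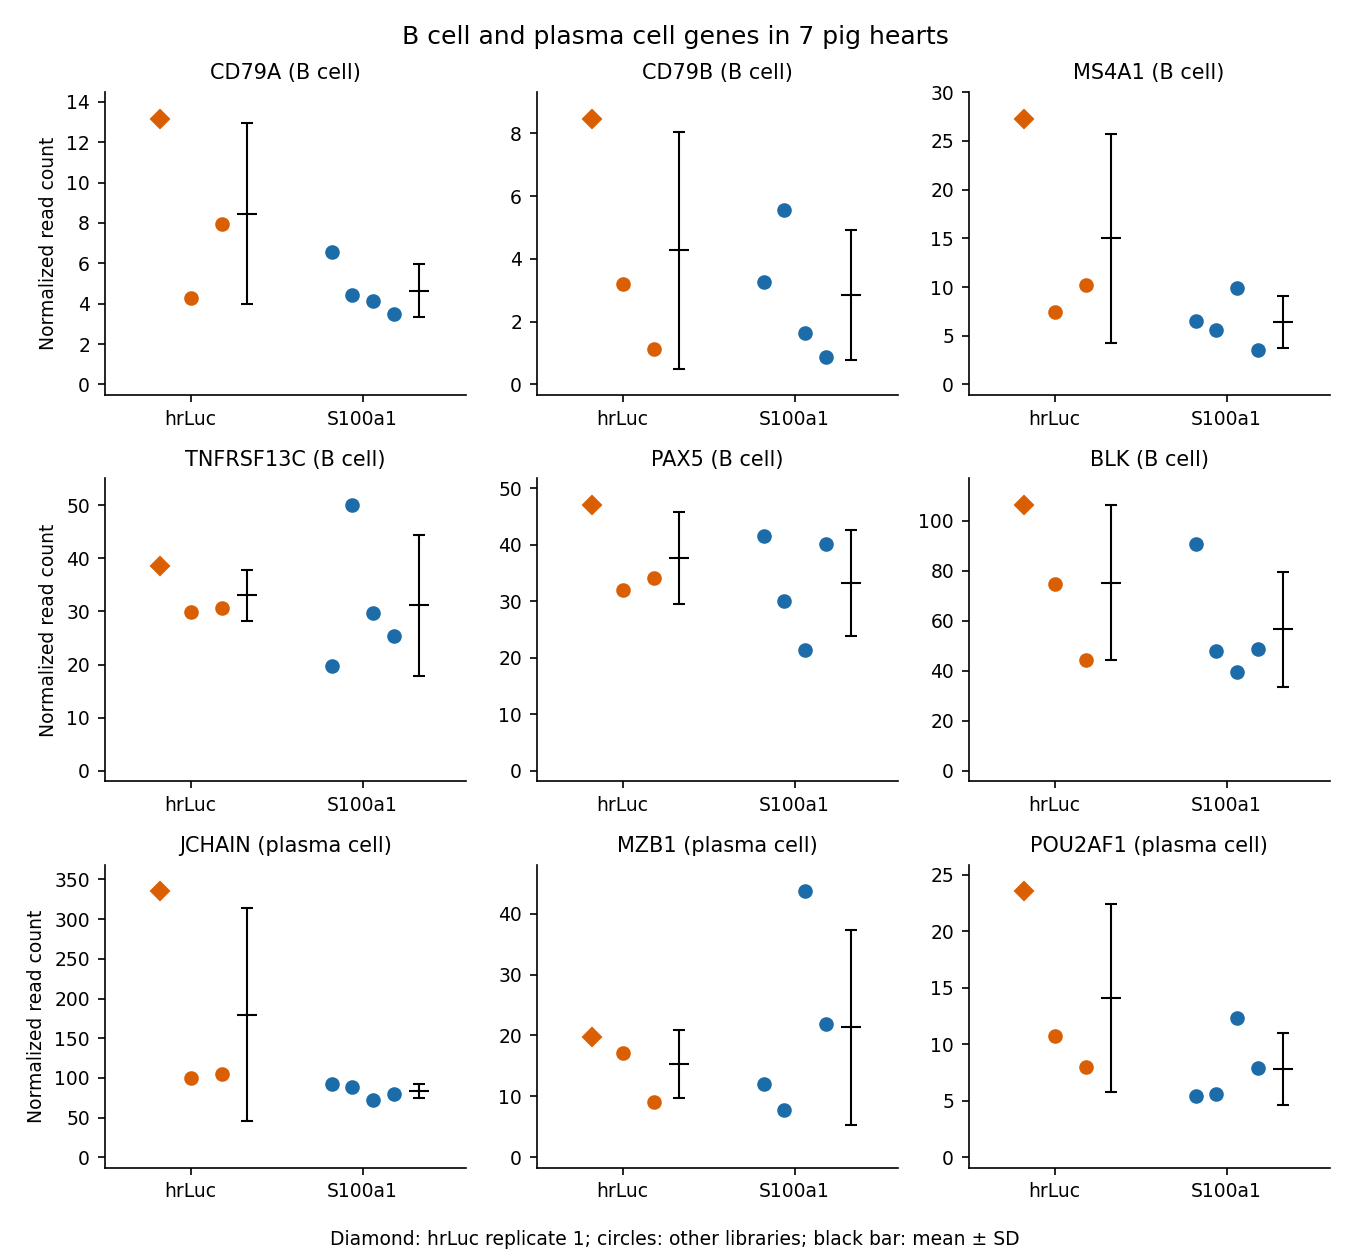
Normalized read counts (vertical axes, linear and scaled per gene) of the 9 members in the hrLuc (n = 3) and S100a1 (n = 4) libraries. Points are single libraries, the diamond is hrLuc replicate 1, and the black bar is the mean ± SD. hrLuc replicate 1 is the highest point in 7 of 9 panels, and JCHAIN is the panel in which the groups do not overlap.

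No member differed between the groups at an adjusted p under 0.05, and JCHAIN was the 1 member of 9 whose groups did not overlap. Groups that did not overlap were found in 5.31% of the genes tested with S100a1 lower and in 3.96% with S100a1 higher. The mean of 8 of the 9 members on the log2 scale was lower in S100a1, where 56.5% of all genes tested had a negative fold change. In limma 0 of 6 tested members passed, against 0.0128% of all genes tested. At an unadjusted p under 0.05 there were also 0 of 6, against 8.26% of all genes. edgeR and DESeq2, run on the recovered reads, called 0 members at an adjusted p under 0.05 as well. Fold changes are S100a1 over hrLuc on the log2(value + 0.5) scale, which makes differences of low genes look smaller. The exact permutation test of 7 values has 35 splits and can give no p below 0.0286. Its p is unadjusted, and it is given for all members and for part of the immunoglobulin genes. The exact two-sided permutation p was 0.714 for TNFRSF13C, 0.571 for PAX5 and 0.371 for BLK. It was 0.743 for MZB1 and 0.171 for POU2AF1, and the other members follow below.

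CD79A and CD79B, the signalling chains of the B cell receptor, were near the limit of detection in both groups. CD79A (Sscrofa11.1, chromosome 6, 49996116 to 49999294) stood at 13.2, 4.28 and 7.95 normalized counts in the hrLuc libraries, given here and throughout in replicate order. The S100a1 libraries stood at 6.55, 4.45, 4.12 and 3.49. hrLuc replicate 1 was the high library and the groups overlapped, with a log2 fold change of -0.70 (exact two-sided permutation p = 0.171). CD79B (chromosome 12, 15052966 to 15056441) had 9, 3 and 1 reads in the hrLuc libraries and 3, 5, 2 and 1 in the S100a1 libraries. Its log2 fold change was -0.40 with all libraries (exact two-sided permutation p = 0.629). It was 0.22 without hrLuc replicate 1, so its direction depended on that library.

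MS4A1 encodes CD20, a surface protein of mature B cells that is the target of depleting antibodies. It lies on chromosome 2 from 11216238 to 11229060. Its values were 27.3, 7.48 and 10.2 normalized counts in hrLuc and 6.55, 5.56, 9.88 and 3.49 in S100a1. The groups overlapped because hrLuc replicate 2 lay below S100a1 replicate 3, and the log2 fold change was -1.04 (exact two-sided permutation p = 0.114). Without hrLuc replicate 1 it was -0.51. MS4A1 overlaps MS4A4A, a related gene of macrophages, which held 371 to 582 normalized counts in a library, so a small share of its reads counted on MS4A1 would alter these values. Whether this occurred was not tested.

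TNFRSF13C, the receptor through which B cells receive the survival factor BAFF, did not separate the groups. Its gene lies on chromosome 5 from 6699812 to 6703403. It stood at 38.6, 29.9 and 30.7 normalized counts in hrLuc, and at 19.7, 50.02, 29.7 and 25.3 in S100a1. The S100a1 libraries held both the lowest and the highest value of the 7. The log2 fold change was -0.16 ± 0.33 (SE; adjusted p = 0.903, limma), and it was 0.028 without S100a1 replicate 1.

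PAX5, the transcription factor that sets and keeps B cell identity, was spread evenly over the groups. It spans chromosome 1 from 237574938 to 237785454. Its values were 47.1, 32.1 and 34.1 normalized counts in hrLuc and 41.5, 30.01, 21.4 and 40.1 in S100a1. The log2 fold change was -0.21 ± 0.29 (SE; adjusted p = 0.858, limma), less than its own error, and -0.038 without hrLuc replicate 1.

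BLK, a Src family kinase that acts below the B cell receptor, gave an answer that depended on the transcript row. The gene lies on chromosome 14 from 14688489 to 14745946. In the row used, with the highest mean, it stood at 106, 74.8 and 44.3 normalized counts in hrLuc and at 90.6, 47.8, 39.5 and 48.9 in S100a1. S100a1 replicate 1 was above 2 of the hrLuc libraries, and the log2 fold change was -0.39 ± 0.36 (SE; adjusted p = 0.771, limma). Leaving out hrLuc replicate 1 gave -0.097, and leaving out hrLuc replicate 3 gave -0.72. In the middle row of its 3 rows the log2 fold change was 0.01. In the lowest row, with means of 24.8 in hrLuc and 29.1 in S100a1, it was 0.19. In that row S100a1 replicate 1 was the highest library at 42.6 and hrLuc replicate 1 stood at 30.1. The 5 rows of PAX5 and the 2 rows of TNFRSF13C gave no such change of sign in the authors' deposited table.

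POU2AF1, a coactivator that works with POU2 factors at antibody gene promoters, stood at 23.5, 10.7 and 7.95 normalized counts in hrLuc. In S100a1 it stood at 5.46, 5.56, 12.4 and 7.86. It lies on chromosome 9 from 39121422 to 39144636. hrLuc replicate 1 was high and the other 6 libraries were mixed, with a log2 fold change of -0.74 ± 0.49 (SE; adjusted p = 0.686, limma). Without hrLuc replicate 1 the log2 fold change was -0.30.

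JCHAIN (chromosome 8, 67439405 to 67448628) was lower in every S100a1 library than in any hrLuc library. Its values were 335, 99.4 and 105 normalized counts in hrLuc and 92.8, 88.9, 72.5 and 79.4 in S100a1. The gap between the groups was narrow, from 92.8 to 99.4, and hrLuc replicate 1 stood 3.69 times above the median of the other 6 libraries. The means were 180 ± 135 (SD, n = 3) for hrLuc and 83.4 ± 9.21 (SD, n = 4) for S100a1. The log2 fold change was -0.86 ± 0.39 (SE; unadjusted p = 0.0526 and adjusted p = 0.608, limma). The exact two-sided permutation test gave p = 0.0286, the smallest it can give. Without hrLuc replicate 1 the log2 fold change of JCHAIN was -0.29, and the exact permutation p was 0.133 over 15 splits. edgeR gave JCHAIN an adjusted p of 0.552 and DESeq2 one of 0.284. The authors' deposited table gives a log2 fold change of -1.11 and an adjusted p of 0.236.

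MZB1, an endoplasmic reticulum protein that helps antibody assembly and secretion, did not follow JCHAIN. It lies on chromosome 2 from 141277541 to 141279652. It stood at 19.8, 17.1 and 9.09 normalized counts in hrLuc, and at 12.01, 7.78, 43.7 and 21.8 in S100a1. S100a1 replicate 3 was the highest library here, while the same library was the lowest for JCHAIN. The log2 fold change was 0.25 ± 0.57 (SE; adjusted p = 0.916, limma), and without S100a1 replicate 3 it was -0.19. MZB1 overlaps SLC23A1, a vitamin C transporter gene, which held 1794 to 1962 normalized counts in a library. The part of such reads was not tested.

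Antibody genes were next read out, since they are what plasma cells transcribe most. The table names none of the usual constant genes by symbol (IGHM, IGHA, IGHG or IGKC), so genes were taken by a description that names an immunoglobulin heavy, kappa or lambda chain. This gave 7 genes, of which 5 were on unplaced sequence of Sscrofa11.1. In 5 of the 7 the groups did not overlap and every S100a1 library was lower. That pattern held for 5.31% of the genes above the filter. LOC100038329, LOC445536 and LOC100038328, among those that did not overlap, were under the filter, so this share does not cover them. However, 3 of the 7 genes passed the low-value filter, none of the 3 was called by limma, and heavy variable genes are close copies whose reads can be shared.

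The IgG heavy chain (LOC396781) had the most reads of the 7 genes only through hrLuc replicate 1. In each of the other 6 libraries LOC100152327, a lambda-type gene, had more reads. The values of the IgG heavy chain were 4755, 778 and 1229 normalized counts in hrLuc and 529, 351, 492 and 518 in S100a1. All 4 S100a1 libraries lay below the lowest hrLuc library, and hrLuc replicate 1 was 9.08 times the median of the other 6. The mean was 2254 ± 2177 (SD, n = 3) for hrLuc and 472 ± 82.3 (SD, n = 4) for S100a1, a ratio of 4.77. The log2 fold change was -1.83 ± 0.51 (SE; unadjusted p = 0.0062 and adjusted p = 0.515, limma; exact two-sided permutation p = 0.0286). Without hrLuc replicate 1 the ratio of the means was 2.12 and the log2 fold change was -1.07 (unadjusted p = 0.0014 and adjusted p = 0.803, limma). DESeq2 gave an adjusted p of 0.0872, and the authors' deposited table one of 0.0667.

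The 4 heavy variable genes had few reads in S100a1. LOC100125542 stood at 89.4, 13.9 and 14.8 normalized counts in hrLuc and at 5.46, 1.11, 1.65 and 6.11 in S100a1. DESeq2, which was run on genes above the filter, called it (adjusted p = 0.0247), and limma did not call it (log2 fold change -2.98 ± 0.79, adjusted p = 0.514). It passed the filter through the 3 hrLuc libraries alone, so it could be tested only because it was high there, and it falls under the filter without hrLuc replicate 1. DESeq2 called 0.568% of the genes it tested. LOC100038329 stood at 123, 9.62 and 10.2 in hrLuc and at 2.18 to 4.36 in S100a1. LOC445536 stood at 44.2, 10.7 and 9.09 in hrLuc and at 0 to 3.29 in S100a1. LOC100038328 stood at 12.2, 7.48 and 6.82 in hrLuc and at 0 to 1.65 in S100a1. In all 4 the hrLuc libraries were above the S100a1 libraries. Leaving out a hrLuc library cannot change this, so it is no check on hrLuc replicate 1. The mean of hrLuc replicates 2 and 3 alone was 3.08 times that of S100a1 for LOC100038329 and 4.002 for LOC100125542. It was 7.20 times for LOC445536 and 7.88 for LOC100038328. Those 2 libraries held 6 to 13 reads of each gene. Without hrLuc replicate 1 the exact two-sided permutation p over 15 splits was 0.133 for LOC100125542. For each of the other heavy variable genes it was 0.0667. In the authors' deposited table LOC100125542 (log2 fold change -3.46, adjusted p = 0.0190) and LOC445536 (-3.93, 0.0290) had an adjusted p under 0.05, as had 0.927% of its transcript rows, and no row of a member did. There LOC100038328 had an adjusted p of 0.142, and LOC100038329 (log2 fold change -3.87) was given none.

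The lambda-type genes did not separate the groups. LOC100152327, described as immunoglobulin lambda-like polypeptide 5, lies on chromosome 14 from 48800248 to 49001525 and spans other annotated genes. It stood at 1854, 962 and 1258 normalized counts in hrLuc and at 928, 993, 896 and 1045 in S100a1. Its log2 fold change was -0.44 ± 0.19 (SE; unadjusted p = 0.0438 and adjusted p = 0.580, limma), and -0.19 without hrLuc replicate 1. LOC100523213, with the same description, had 0 to 5 reads in a library.

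**Figure D2:**
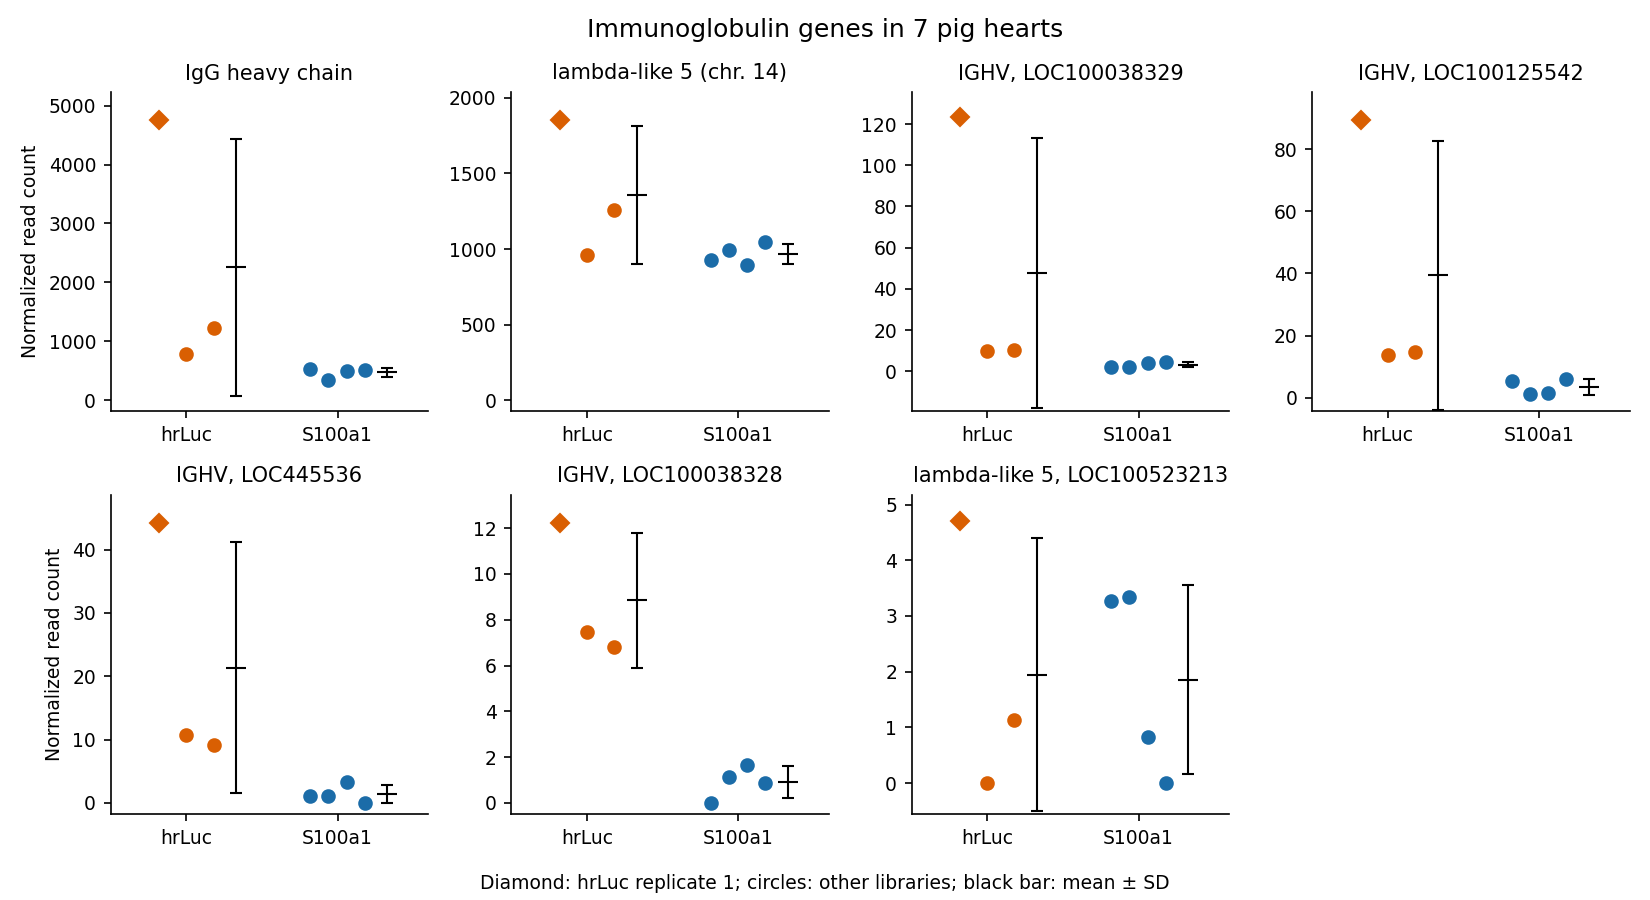
Normalized read counts (vertical axes, linear and scaled per gene) of the 7 immunoglobulin genes in hrLuc (n = 3) and S100a1 (n = 4). Points are single libraries, the diamond is hrLuc replicate 1, and the black bar is the mean ± SD, which can reach below 0. The groups do not overlap for the IgG heavy chain and the 4 heavy variable genes (IGHV), and hrLuc replicate 1 is the highest point in all 7 panels.

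hrLuc replicate 1 was the highest library for 7 of 9 members and for all 7 immunoglobulin genes, and it was the highest for 18.4% of all genes tested. With that library set aside, 7 of 9 members had a negative log2 fold change, against 55.6% of all genes, CD79B turned positive, and the largest in size among the members was that of MS4A1 at -0.51. The summed level of the B cell members was 241 normalized counts in hrLuc replicate 1, and 128 to 152 in the other hrLuc libraries. It was 106 to 168 in S100a1. For the plasma cell members the sum was 378 in hrLuc replicate 1, 122 and 127 in the other hrLuc libraries and 102 to 128 in S100a1. JCHAIN alone supplied 335 of the 378, and MZB1 was highest in S100a1 replicate 3, so this sum mostly repeats JCHAIN. Immunoglobulin genes summed to 6883, 1782 and 2529 in hrLuc replicates 1 to 3 and to 1353 to 1575 in S100a1.

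Summed markers of T cells, macrophages, red blood cells and fibroblasts were also highest in hrLuc replicate 1. Those of plasmacytoid dendritic cells, endothelial cells, adipocytes and cardiomyocytes were not. All 11 T cell markers were measured, none at 0, and their sum was 1665, 855 and 1462 normalized counts in hrLuc and 706 to 947 in S100a1. Of the macrophage markers 8 of 9 passed the filter, and their sum was 10516 in hrLuc replicate 1, 6746 and 6783 in the other hrLuc libraries and 6020 to 9600 in S100a1. Red blood cell markers, of which 4 of 7 passed the filter, summed to 431 in hrLuc replicate 1, 184 and 349 in the other hrLuc libraries and 167 to 341 in S100a1. Plasmacytoid dendritic cells also express JCHAIN and MZB1. Of their 9 markers 8 were in the table and IL3RA was not. Those 8 summed to 13731 to 15909 in hrLuc and 13024 to 15690 in S100a1. Fibroblast markers summed to 108580 to 123270 in hrLuc and 69799 to 114540 in S100a1. Endothelial markers (23395 to 26725 against 22746 to 25181) and adipocyte markers (1550 to 2120 against 1620 to 2805) overlapped between hrLuc and S100a1. The part of these cell types in the immunoglobulin and JCHAIN values was not tested.

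**Figure D3:**
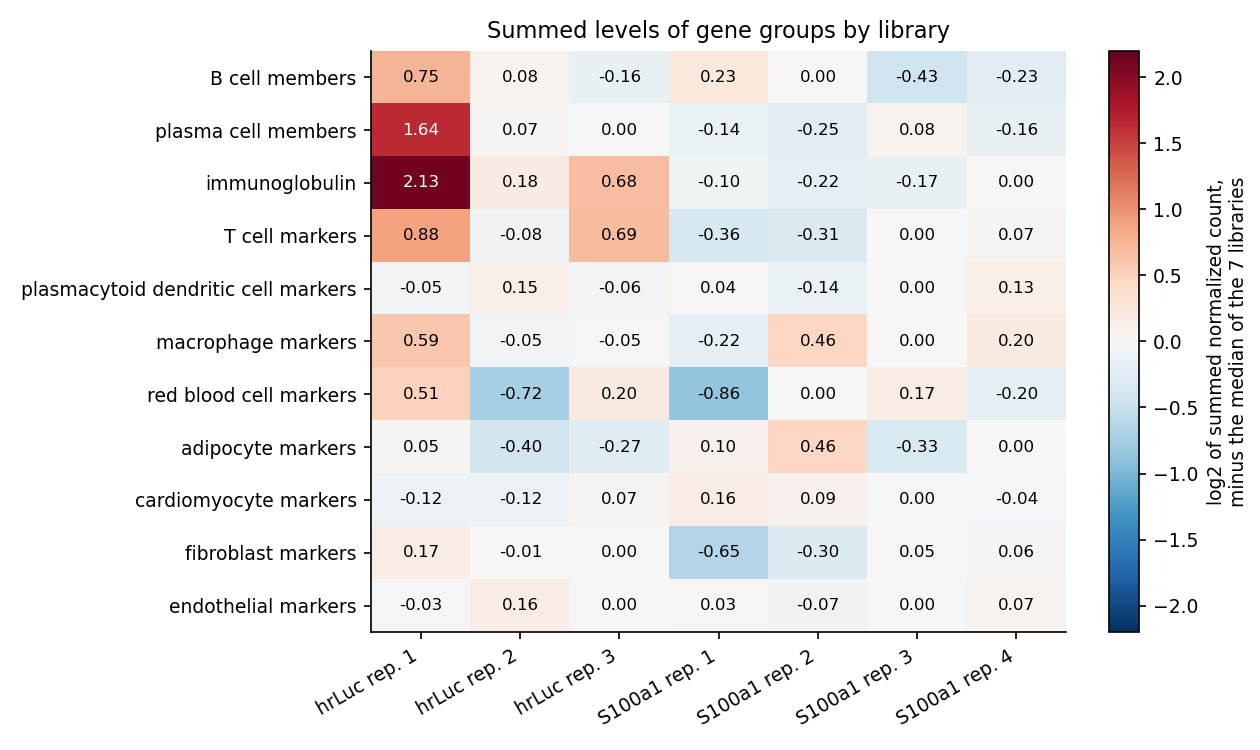
Summed normalized counts of gene groups (rows) in each library (columns), as log2 minus the median of the 7 libraries, with red above and blue below. hrLuc replicate 1 stands at 2.13 for the immunoglobulin genes, 1.64 for the plasma cell members (mostly JCHAIN), 0.88 for T cell markers and 0.75 for the B cell members, while cardiomyocyte markers lie between -0.12 and 0.16 in all libraries.

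**Figure D4:**
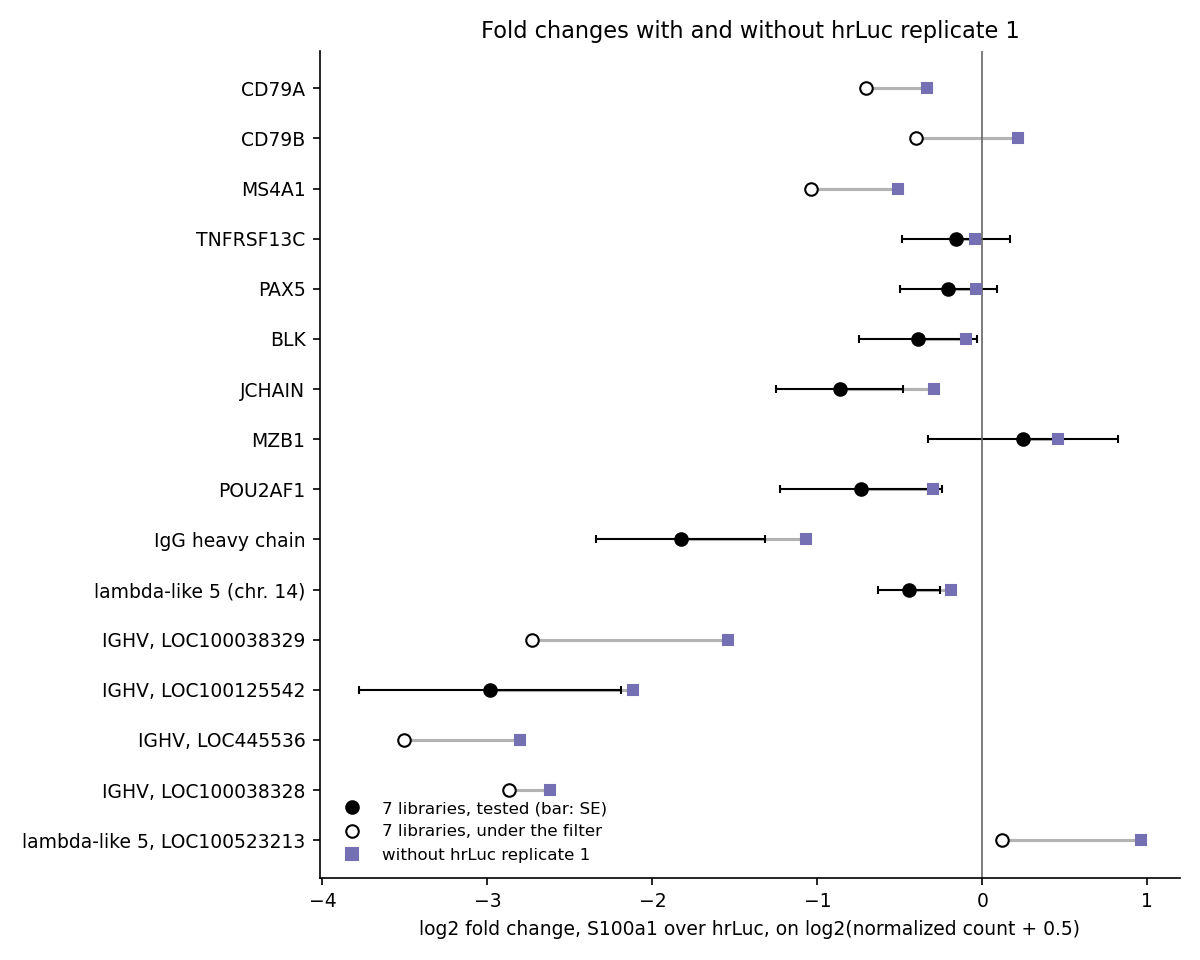
Log2 fold changes of S100a1 over hrLuc (horizontal axis) for the 9 members and 7 immunoglobulin genes. Circles use all 7 libraries, filled with an SE bar where the gene was tested and open where it was under the filter, and squares leave out hrLuc replicate 1. Without that library the member values lie between -0.51 (MS4A1) and 0.46 (MZB1), and those of the IgG heavy chain and heavy variable genes lie between -2.80 and -1.07.

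The wider programme of the plasma cell was read from a list that holds its main regulators. Of 18 tested genes of plasma cell identity and secretion, 0 passed the adjusted threshold in limma. Lower genes at an unadjusted p under 0.05 numbered 6 and higher genes 0, against 4.57% lower among all genes. The log2 fold change was negative for 13 and positive for 5, where 56.5% of all genes tested had a negative value. All genes of this list named below were among the 13, except DERL3 and CD27. The median log2 fold change was -0.13, against -0.02 over all genes tested. PRDM1, which encodes the repressor BLIMP1 that drives plasma cell formation, stood at 181, 168 and 173 normalized counts in hrLuc and at 115, 97.8, 84.0 and 133 in S100a1. Its groups did not overlap, and its hrLuc libraries lay close together, where those of JCHAIN stood at 335, 99.4 and 105. The log2 fold change of PRDM1 was -0.71 ± 0.17 (SE; adjusted p = 0.492, limma). Without hrLuc replicate 1 it was -0.68. Which cells the PRDM1 reads came from was not tested. IRF4, a transcription factor needed by plasma cells and also used by T cells, stood at 109, 46.0 and 78.4 in hrLuc and at 40.4, 41.1, 37.1 and 31.4 in S100a1. Its groups did not overlap either, with a log2 fold change of -0.97 ± 0.29 (SE; adjusted p = 0.534, limma). PDIA4, an endoplasmic reticulum disulfide isomerase present in most cells, was at -0.36 ± 0.11 (SE; adjusted p = 0.535, limma).

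Among the other plasma cell markers, CD38, a surface enzyme also found on other blood cells and endothelium, had a log2 fold change of -0.66, and -0.55 without hrLuc replicate 1. It is named here after its values were seen. So are DERL3 at 0.18 and CD27 at 0.12, which went the other way (0.21 and 0.24 without hrLuc replicate 1). XBP1, the factor that expands the secretory apparatus, was at 1607 ± 180 (SD, n = 3) normalized counts in hrLuc and 1394 ± 98.8 (SD, n = 4) in S100a1. SDC1, the surface marker CD138, was at 53.0 ± 24.7 (SD, n = 3) and 45.8 ± 10.8 (SD, n = 4). TNFRSF17, the plasma cell receptor BCMA, was at 84.5 ± 17.8 (SD, n = 3) and 79.6 ± 8.82 (SD, n = 4). The log2 fold changes of XBP1, SDC1 and TNFRSF17 were -0.20, -0.13 and -0.07, and none passed in limma. Without hrLuc replicate 1 the list held 3 lower genes and 0 higher at an unadjusted p under 0.05, against 4.93% in either direction over all genes, and its median was -0.096.

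Genes that carry the B cell receptor signal gave small differences. The log2 fold change was negative for 16 of 17 tested, the median was -0.23, and 0 passed the adjusted threshold in limma. Lower genes at an unadjusted p under 0.05 numbered 4 and higher genes 0, against 4.57% lower among all genes, of which 56.5% had a negative value. There were 0 in either direction without hrLuc replicate 1, against 4.93%. The smallest p belonged to genes shared with other blood cells. LYN, a Src family kinase of B and myeloid cells, was at -0.29, PTPN6, the phosphatase SHP-1, at -0.40, and INPP5D, the phosphatase SHIP1, at -0.26, with adjusted p of 0.571, 0.573 and 0.573 in limma. Of 12 tested genes of B cell identity, 0 passed in limma and 1 was lower at an unadjusted p under 0.05, against 4.57% of all genes. That gene was CD40, the receptor for T cell help, which is also found on endothelial and myeloid cells. It was at 129 to 146 normalized counts in hrLuc and 81.9 to 123 in S100a1, a log2 fold change of -0.45 ± 0.17 (SE; adjusted p = 0.557, limma). VPREB3, of the surrogate light chain, was at 0.36 and overlaps C14H22orf15, and CIITA, the regulator of class II genes, was at -0.11 and overlaps DEXI.

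**Figure D5:**
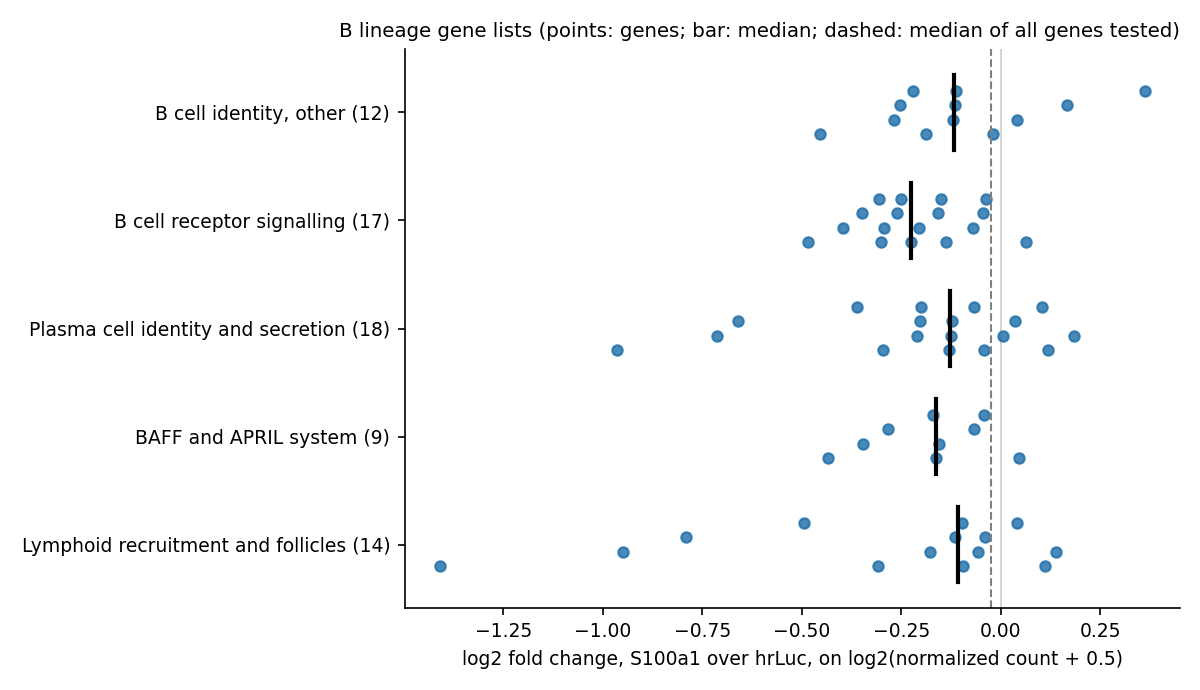
Log2 fold changes of S100a1 over hrLuc (horizontal axis) for the tested genes of 5 B lineage lists, with the number of genes in brackets. Points are genes, black bars are list medians and the dashed line is the median of all genes tested (-0.02). The medians lie between -0.23 and -0.11, and no gene passed the adjusted threshold.

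The BAFF and APRIL system, which keeps B cells and plasma cells alive, had 0 of 9 genes past the adjusted threshold in limma and 2 lower at an unadjusted p under 0.05, against 4.57% of all genes. Without hrLuc replicate 1 there were 1 lower and 0 higher, against 4.93% in either direction over all genes. Its median log2 fold change was -0.16. RELB, the NF-kB subunit activated below the BAFF receptor and other receptors, was at 345 ± 15.3 (SD, n = 3) normalized counts in hrLuc and 256 ± 28.3 (SD, n = 4) in S100a1. Its groups did not overlap (log2 fold change -0.43 ± 0.11, adjusted p = 0.514, limma). TRAF2 was at -0.28 and TRAF3 at -0.16, both adaptors of these receptors. The ligands are given for their role, outside the rule for named genes. TNFSF13B, which encodes BAFF, stood at 210, 80.2 and 105 normalized counts in hrLuc and at 99.4, 85.6, 114 and 82.9 in S100a1. Its log2 fold change was -0.35 with all libraries and 0.050 without hrLuc replicate 1. TNFSF13, which encodes APRIL, was at -0.15.

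Of 14 tested genes that draw lymphocytes in or organise follicles, 0 passed the adjusted threshold in limma and 2 were lower at an unadjusted p under 0.05, against 4.57% of all genes, with a median of -0.11. Without hrLuc replicate 1 the count was 1 lower and 0 higher, against 4.93% in either direction over all genes. CXCL12, the chemokine that holds plasma cells and their precursors in marrow niches and is made by stromal and endothelial cells, stood at 4045, 4298 and 4334 normalized counts in hrLuc. In S100a1 it stood at 1807, 2016, 2670 and 3638, below every hrLuc library. Its log2 fold change was -0.79 ± 0.21 (SE; adjusted p = 0.514, limma), and -0.82 without hrLuc replicate 1. CXCR4, the receptor of CXCL12, was at 68.7, 91.9 and 35.2 in hrLuc and 18.6, 34.5, 32.9 and 44.5 in S100a1, and its groups overlapped at hrLuc replicate 3. Its log2 fold change was -0.95 ± 0.39 (SE; adjusted p = 0.574, limma). ICAM1, an adhesion molecule, was at -0.31. CXCL13, the chemokine of B cell follicles, is added for its role. It stood at 37.6, 4.28 and 20.4 in hrLuc and at 10.9, 2.22, 4.12 and 7.86 in S100a1, with overlapping groups and a log2 fold change of -1.41 ± 0.77 (SE; adjusted p = 0.642, limma). Leaving out hrLuc replicate 1 gave -0.77, and leaving out hrLuc replicate 2 gave -2.26. Of the named constant gene list, FCGRT, the receptor that protects IgG from breakdown, was the 1 gene tested, at -0.12.

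The genes most like CD79A and JCHAIN were sought among 13639 other named genes with a mean of at least 20 normalized counts, as the smallest root mean square difference of centred log2 values over the 7 libraries. For CD79A they were CLU, a secreted chaperone (0.165 log2 units), EAF2, a transcription elongation factor partner (0.171), ARHGAP8 (0.209), ANPEP, an aminopeptidase (0.209), and IRF4 (0.223). The spread of CD79A itself was 0.582. For JCHAIN they were SLC4A8, a bicarbonate transporter (0.254), SLC15A2, a peptide transporter (0.255), SCIN, an actin-severing protein (0.268), SGCZ, a sarcoglycan (0.269), and UBD, a ubiquitin-like modifier (0.283), where the spread of JCHAIN was 0.688. In all 10 genes hrLuc replicate 1 was the highest library, as in CD79A and JCHAIN themselves, so this follows from how the genes were chosen. The CD79A pattern rests on 4 to 14 reads in a library.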

How the data were processed

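The deposited signal values give, for each transcript, reads divided by a size factor of the library, as the values show: 100% were whole multiples of 1 read (within 0.01 read). The authors' deposited log2 fold changes, their deposited ratio and their adjusted p-value column were copied as theirs. The submitters' processing notes name DESeq2 1.33.1, FastQC 0.11.8, R 4.1.2 and the build Sscrofa11.1. The sources used here do not give the aligner, counting program or strand handling. RefSeq gene IDs matched all 63562 rows. Main test: limma 3.58.1 (R 4.3.3) with a mean-variance trend on log2(value + 0.5), 7 libraries, Benjamini-Hochberg over 15661 genes, threshold 0.05. edgeR 4.0.16 and DESeq2 1.42.0 used the recovered reads. The fit was tested on simulated counts with known folds and no outlying library, so this is no check on the part of hrLuc replicate 1. The same replicate number did not mark a shared animal. Members, lists and tests were chosen with earlier results of these data known. Named genes are all members, the 3 of smallest p in each list, immunoglobulin genes by description, and 5 genes nearest to CD79A and to JCHAIN. CD22, XBP1, SDC1 and TNFRSF17 check the cell types. Some marker genes of the lists are not reported here. Genes given for their role are marked.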

Additional observations from a re-analysis of the deposited data

Results flagged for a closer look

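FCGRT was the 1 of the named genes in which a library stood apart within the 4 S100a1 libraries by Dixon's criterion. Its S100a1 values were 1935, 2098, 2131 and 2114 normalized counts, and the gap of the lowest library to its neighbour was 0.8302 of the range, just above the critical value for 4 samples. Chance gives about 1 such case in 20 groups, and groups of 3 were not examined, so hrLuc replicate 1 was not judged in this way.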

How the results depend on the processing

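The count of members past the threshold was 0 under every alternative tried. The count of all genes past it was 2, and it was 1 with median centring, 0 with the replicate block and 89 with DESeq2. With 1 library left out it ran from 0 to 3. The same replicate numbers in the 2 groups did not pair the libraries: deviations of same-numbered libraries correlated at -0.02, -0.07 and 0.08, and the replicate block left out S100a1 replicate 4. CD79B (0.22 without hrLuc replicate 1) and LOC100523213, with few reads, changed sign untested. Among tested genes the sign changed for TNFRSF13C at 0.028 without S100a1 replicate 1, BLK at 0.19 in the lowest transcript row, MZB1 at -0.079 without hrLuc replicate 3 and -0.19 without S100a1 replicate 3, TNFRSF17 at 0.037 without hrLuc replicate 2 and 0.014 without hrLuc replicate 3, SDC1 at 0.21 and TNFSF13B at 0.050 without hrLuc replicate 1. The other ends of these ranges were -0.41 for TNFRSF13C, 0.62 for MZB1, -0.25 for TNFRSF17, -0.48 for SDC1 and -0.64 for TNFSF13B. With a library left out JCHAIN ran from -1.17 to -0.29, POU2AF1 from -1.06 to -0.30 and the IgG heavy chain from -2.37 to -1.07. For LOC100038328 the pseudocount moved the value, to -3.68 with 0.1 and -1.90 with 2. edgeR without a filter, added after seeing the data, gave CD79A, CD79B and MS4A1 adjusted p of 0.696, 0.823 and 0.655. The few reads of these genes limit what can be seen.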
